A study of Mus musculus with 4 samples.

Results

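Expression of the tumor necrosis factor (TNF) superfamily ligands and receptors was examined in late pregnant uteri with and without Qa-2. They were taken as the protein-coding genes whose GRCm38 symbol starts with Tnfsf or Tnfrsf, together with Tnf, Lta, Ltb, Ltbr, Fas, Fasl, Cd40, Cd40lg, Cd27, Cd70, Ngfr, Eda, Edar and Eda2r. This rule found 46 of the 55421 genes counted, namely 19 ligands and 27 receptors. WT animals were C57BL/6J, and Qa-2- animals were of the H2 congenic strain B6.K1 (B6.Cg-H2b3/FlaCmwJ), which lacks the genes of the MHC class Ib molecule Qa-2 in every cell and carries a foreign stretch of chromosome 17 around them. Uteri were taken at E18.5 from 2 animals per group without any treatment, and 1 library was made from each uterus. Per the study's methods, RNA came from a small weighed amount of frozen tissue. Which part of the uterus it held was not given. Matings were set up at 8 to 12 weeks of age per the study's methods. As a congenic strain differs from C57BL/6J in all genes of the transferred stretch, the lack of Qa-2 and the other alleles of that stretch cannot be told apart. The study's matings were syngeneic, so fetuses and placentas carried the genotype of their mother. The strains came from different suppliers, and a strain developed in parallel to B6.K1 was not used as control. These differences cannot be told apart from the lack of Qa-2 either.

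TNF superfamily ligands are mostly made as trimeric membrane proteins, some of which are shed, and bind receptors with cysteine-rich repeats. Some receptors with a death domain can recruit FADD and caspase-8 and so start apoptosis. Receptors without one bind TRAF adaptors and turn on NF-kB and MAP kinases, and receptors with a death domain can turn on NF-kB as well. Decoy receptors bind a ligand but pass on no death signal. In the pregnant uterus the family is known for costimulation of T cells and NK cells, for endothelial and macrophage responses to TNF, and for control of cell death in decidua.

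As a check of the labels, the Qa-2 genes H2-Q6 and H2-Q7 had 4204 and 6318 counts in WT replicate 1, 1192 and 1251 in WT replicate 2, and 2 to 4 counts in each Qa-2- library. Total counts lay between 33286390 and 41041299, so that the floor of 3 counts was 0.0747 to 0.0858 CPM, that is, gene counts scaled to a common library size after TMM normalization. Each library stood apart from the other of its group in some genes. WT replicate 1 was high in the cytotoxic effector genes Prf1 (perforin), with 78.2 CPM against 1.32 to 4.55 CPM in the other libraries, and Gzmb (granzyme B), with 27 CPM against 1.78 to 4.63 CPM. Qa-2- replicate 2 was high in the epithelial secretory gene Lcn2, with 4641 CPM against 331.3 to 541.5 CPM. The fetal gene Afp had 373.4 CPM in Qa-2- replicate 1 against 3.94 to 33.6 CPM in the others, and the placental genes Psg21 and Prl3b1 had 308 and 155 counts in WT replicate 2 and 0 elsewhere. All marker lists had detected genes in every library, and only the list of trophoblast and yolk sac held genes at 0 in all libraries, which were 2 of 10. The summed CPM of 7 endothelial markers were 1041 and 1175 in WT uteri and 505.9 and 538.4 in Qa-2- uteri, and all 7 were higher in both WT libraries. Summed macrophage and monocyte markers were 1307 and 1724 CPM in WT and 868.8 and 1008 CPM in Qa-2- uteri, with 5 of 9 genes higher in both WT libraries. Epithelial markers were lower in WT uteri, with 1762 and 2881 CPM against 3750 and 3950 CPM, and 6 of 7 genes were apart in that direction. The sums of the 6 neutrophil markers were 9.89 and 10.1 CPM in WT against 5.89 and 6.86 CPM, with 2 of 6 genes higher in both WT libraries and 4 overlapping. Those of the 5 dendritic cell markers (15.8 to 19.9 CPM), the 6 stroma markers (15528 to 31990 CPM) and the 10 trophoblast and yolk sac markers (5.46 to 405.9 CPM, highest in Qa-2- replicate 1) overlapped between groups. Fewer cells of a type, less RNA per cell and a different part of the uterus in the sampled tissue cannot be told apart here.

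Of the 46 members, 30 reached 1 CPM in at least 2 libraries and were tested, which were 8 ligands and 22 receptors. None of them passed this filter through 1 group alone, and 27 had at least 1 CPM in all 4 libraries. Counts were compared with the edgeR quasi-likelihood test, and log2 fold changes are WT over Qa-2-, so that positive values are higher in WT. At an adjusted p under 0.05 edgeR called 0 of the 30 members, and 0% of the 14492 genes tested. These include H2-Q6 and H2-Q7, absent from the Qa-2- strain, for which edgeR gave an adjusted p of 0.228. The smallest adjusted p of a member was 0.246, and that of all genes was 0.170. Without adjustment for the number of genes, 7 members had p under 0.05 with higher counts in WT, namely Tnfrsf11b, Fas, Tnfrsf9, Tnfsf9, Tnfrsf26, Tnfrsf1b and Tnfrsf12a, while 8.09% of all genes did so. Tnfrsf8 and Tnfrsf19 made 2 members with p under 0.05 and higher counts in Qa-2- uteri, against 7.09% of all genes. Both WT libraries were above both Qa-2- libraries for 12 members, beside 25.4% of all genes, and the reverse held for 5 members, beside 24.5% of all genes. The groups overlapped for the other 13. DESeq2, run as an alternative, called 4 members higher in WT (Fas, Tnfrsf11b, Tnfrsf9 and Tnfsf9) and 1 member higher in Qa-2- uteri (Tnfrsf8), where it called 2.79% and 2.04% of all genes. The median log2 fold change was 0.28 over the 30 members, -0.07 over the ligands and 0.34 over the receptors, and 0.01 over all genes tested. When WT replicate 1 was left out the median of the members was 0.10, and when Qa-2- replicate 2 was left out that of the receptors was 0.11 and that of the ligands 0.18. An exact permutation test of 2 against 2 libraries cannot go below a two-sided p of 0.33, so no such test was used for single genes.

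To show the sequence around the start of genes that the 2 tests treated differently, the RefSeq promoter windows (GRCm38.p6, 250 bases before to 50 after the start site, 5′ to 3′) are printed for the members called by DESeq2 that have one. Capitals mark matches to the NF-kB consensus or to the AP-1 motif TGANTCA, which were searched on both strands.
Fas, chr19:34290409-34290708, plus strand: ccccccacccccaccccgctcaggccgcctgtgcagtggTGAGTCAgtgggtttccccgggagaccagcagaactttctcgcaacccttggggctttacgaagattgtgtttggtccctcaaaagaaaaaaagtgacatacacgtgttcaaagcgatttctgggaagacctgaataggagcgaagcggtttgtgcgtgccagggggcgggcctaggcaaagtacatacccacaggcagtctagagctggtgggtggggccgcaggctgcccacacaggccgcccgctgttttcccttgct
Tnfrsf8, chr4:145315115-145315414, minus strand: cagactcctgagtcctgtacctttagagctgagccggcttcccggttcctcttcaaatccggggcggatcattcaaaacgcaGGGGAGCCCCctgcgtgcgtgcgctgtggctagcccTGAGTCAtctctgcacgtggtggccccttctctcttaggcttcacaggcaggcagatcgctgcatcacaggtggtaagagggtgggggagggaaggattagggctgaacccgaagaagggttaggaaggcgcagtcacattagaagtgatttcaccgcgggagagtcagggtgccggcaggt
Tnfrsf9, first start, chr4:150919905-150920204, plus strand: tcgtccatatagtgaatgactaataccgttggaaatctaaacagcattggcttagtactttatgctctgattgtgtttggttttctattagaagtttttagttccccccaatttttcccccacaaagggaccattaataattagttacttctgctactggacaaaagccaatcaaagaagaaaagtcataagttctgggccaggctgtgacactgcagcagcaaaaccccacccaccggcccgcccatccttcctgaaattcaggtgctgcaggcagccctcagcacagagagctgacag
Tnfrsf9, second start, chr4:150927749-150928048, plus strand: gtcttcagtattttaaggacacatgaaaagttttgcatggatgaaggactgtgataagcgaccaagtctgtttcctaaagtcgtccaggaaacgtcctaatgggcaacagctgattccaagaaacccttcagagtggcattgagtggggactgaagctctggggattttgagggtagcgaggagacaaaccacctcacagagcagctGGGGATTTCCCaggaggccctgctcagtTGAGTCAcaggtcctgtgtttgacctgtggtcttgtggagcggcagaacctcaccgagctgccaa
Fas held 1 AP-1 match, Tnfrsf8 held 1 match to each motif, and the second start of Tnfrsf9 held 2 overlapping NF-kB matches and 1 AP-1 match, whereas its first start held neither motif. Both Tnfrsf9 windows lie inside the gene as counted, with start sites 5593 and 13437 bases downstream of its annotated start, and first and second refer to the RefSeq entries alone. Windows were found for 36 members. An NF-kB match was present in 3 of them (8.33%), Ltb, Tnfrsf8 and Tnfrsf9, and for 5.14% of the 27025 genes of the table, with a gene counted once when any of its windows matched. AP-1 matches were present in 6 members (16.7%), Fas, Tnfrsf8, Tnfrsf9, Tnfsf13, Tnfsf13b and Tnfsf14, and for 8.97% of all genes of the table. The TATA box TATAAA, on either strand, was found for 7 members (19.4%) and for 15.7% of all genes of the table. Such matches describe the letters alone, and these data do not measure binding.

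Levels are compared between genes only as CPM per kb of exon. The members tested spanned a 134.3-fold range, from 0.479 CPM per kb for the B cell survival factor Tnfsf13b (BAFF) to 64.4 CPM per kb for Tnfrsf1a, the main receptor of TNF on most cells. Receptors filled the top of this order. Tnfrsf1a was followed by the neurotrophin receptor Ngfr (41.4 CPM per kb), by Ltbr, the receptor of lymphotoxin beta (38.8 CPM per kb), by Tnfrsf12a, the receptor of TWEAK (22.4 CPM per kb), and by the death receptor Tnfrsf21 (14.9 CPM per kb). Between libraries, Ngfr ranged from 14.3 to 57.6 CPM per kb and so overlapped both of its neighbours, Tnfrsf1a with 53.8 to 77.1 and Ltbr with 36.1 to 42.0 CPM per kb. Tnfrsf12a lay below Ltbr in every library, with 15.8 to 30.2 CPM per kb, and overlapped Tnfrsf21 with 7.88 to 21.7 CPM per kb. These 5 receptors made up 50.8% to 67.1% of the summed CPM of all members. The most abundant ligand, Tnfsf12 (TWEAK), ranked seventh with 11.7 CPM per kb, a lower limit since exons that it shares with Tnfsfm13 were not counted, followed among ligands by Tnfsf10 (TRAIL) with 7.12 CPM per kb and Tnfsf9 (4-1BB ligand) with 5.83 CPM per kb. As counted, the order of these 3 ligands differed between libraries, since Tnfsf9 was highest of them in WT replicate 1 (14.5 CPM per kb) and Tnfsf10 in Qa-2- replicate 2 (13.5 CPM per kb). Since the level of Tnfsf12 is a lower limit, its rank and its place below these ligands are uncertain. The summed CPM of the family differed little between libraries, from 786.7 to 891.6 CPM, or 0.0777% to 0.0872% of all counts.

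**Figure D1:**
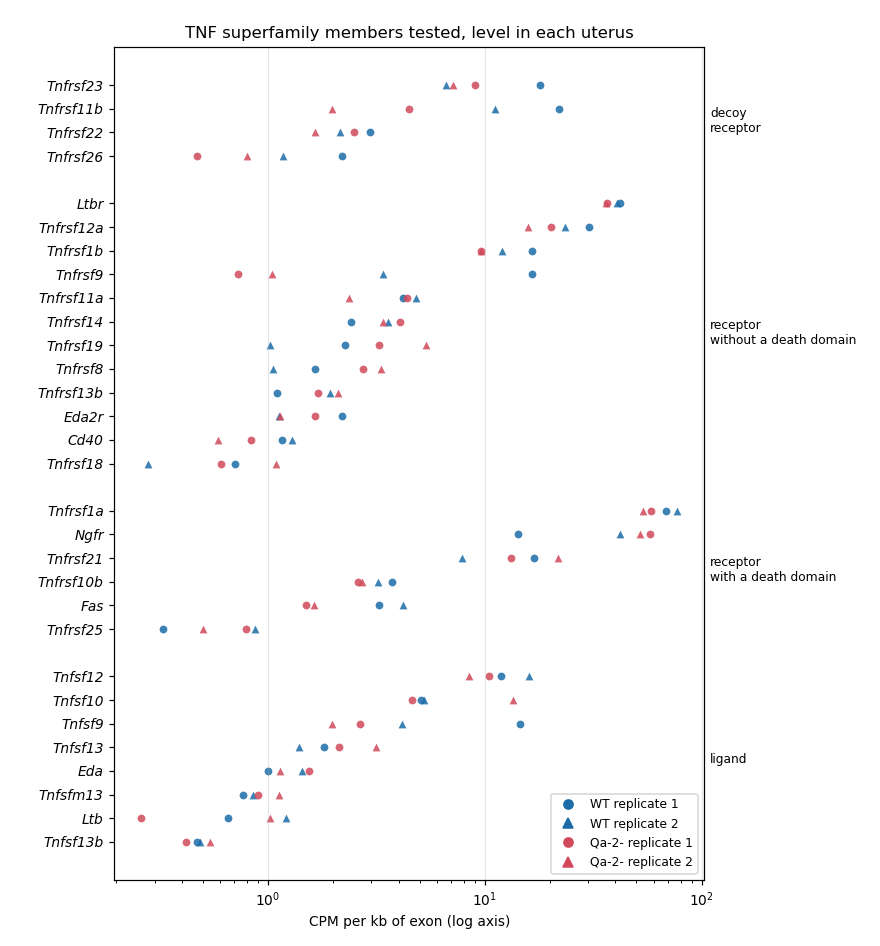
Level of the 30 tested members in each of the 4 uteri, as CPM per kb of exon on a log axis, grouped by role and ordered by mean level within a role. Blue symbols are WT and red symbols Qa-2-, with circles for replicate 1 and triangles for replicate 2; Tnfrsf1a lay highest with 53.8 to 77.1 CPM per kb, and Tnfrsf9 had the largest ratio between the group means.

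Among the 8 ligands tested, both WT libraries were above both Qa-2- libraries for 2 and below for 2, beside 25.4% and 24.5% of all genes. Tnfsf9, the ligand of the costimulatory receptor 4-1BB, had 18.7 and 5.36 CPM in WT uteri and 3.44 and 2.54 CPM in Qa-2- uteri. Both WT values lay above both Qa-2- values, but the WT libraries differed from each other more than WT replicate 2 differed from the Qa-2- libraries. The level averaged 12.0 ± 9.46 CPM in WT against 2.99 ± 0.631 CPM in Qa-2- animals (SD, n = 2 each), with a log2 fold change of 2.01 (SE 0.63, adjusted p = 0.288). Tnfsf9 had a log2 fold change of 0.81 when WT replicate 1 was left out, and of 2.64 when WT replicate 2 was left out, with an adjusted p of 0.0395. DESeq2 called Tnfsf9 with an adjusted p of 0.0232.

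Tnfsf12 had 17.9 and 24.2 CPM in WT uteri and 15.9 and 12.8 CPM in Qa-2- uteri, with a log2 fold change of 0.56 (SE 0.23, adjusted p = 0.348) that was 0.32 without WT replicate 2. Tnfsf13 (APRIL), a ligand that sustains plasma cells, was higher in both Qa-2- libraries, with 2.96 and 2.28 CPM in WT against 3.47 and 5.15 CPM (log2 fold change -0.71, SE 0.36, adjusted p = 0.403). Its log2 fold change was -0.40 without Qa-2- replicate 2. Neither ligand passed the test. The read-through gene Tnfsfm13, which joins TWEAK and APRIL exons, had 1.72 and 1.91 CPM in WT and 2.0 and 2.52 CPM in Qa-2- uteri. It shared 731 exon bases with Tnfsf12 (48.3% of the Tnfsf12 exons) and 983 with Tnfsf13 (60.1%) on the same strand. As the authors did not count read pairs that overlapped several genes, the values of these 3 genes rest on the remaining exons and are uncertain.

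Of the other ligands tested, the death ligand Tnfsf10 had 26.9 and 27.6 CPM in WT, 24.3 CPM in Qa-2- replicate 1 and 71.2 CPM in Qa-2- replicate 2. This high value came from the library that also stood apart in Lcn2, and without it the log2 fold change of Tnfsf10 turned from -0.81 to 0.16. Ltb (lymphotoxin beta) ranged from 0.394 to 1.83 CPM, the ectodysplasin gene Eda from 6.85 to 10.6 CPM and Tnfsf13b from 2.87 to 3.72 CPM, and for none of these 3 were the groups apart. The direction of Ltb, Eda and Tnfsf13b turned when single libraries were left out.

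The other 11 ligands were below the filter. Tnf itself had 20 and 26 counts in WT and 6 and 36 counts in Qa-2- uteri. The T cell ligand Tnfsf14 (LIGHT) had 16 and 28 against 17 and 24 counts, and Fasl, the death ligand of cytotoxic lymphocytes, had 23 and 17 against 10 and 20 counts. For all 3 the groups overlapped. Tnfsf8 (CD30 ligand) had 46 and 19 counts in WT and 11 and 25 counts in Qa-2- uteri, and 46 was the largest count of any member that was not tested. Lta, which encodes lymphotoxin alpha, had 2 and 5 against 6 and 8 counts. Tnfsf11 (RANK ligand), the inducer of osteoclasts, had 11 and 1 against 5 and 5 counts, and the T cell costimulator Tnfsf18 (GITR ligand) had 9 and 7 against 0 and 3 counts. Tnfsf15 (TL1A) had 14 and 4 counts in WT and 5 and 6 in Qa-2- uteri, and Tnfsf4 (OX40 ligand) had 7 and 0 against 1 and 1. Cd70 and Cd40lg, ligands on activated lymphocytes, had at most 3 counts in every library. With no filter on low counts all 46 members were tested, and with a filter of 10 counts in every library 34 were, among them Tnfsf14, Fasl and Tnfsf8. No member was called in either.

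Of the 7 receptors with a death domain, 6 were tested. Fas, which triggers apoptosis on binding of Fas ligand, had 6.70 and 8.64 CPM in WT uteri and 3.07 and 3.34 CPM in Qa-2- uteri. Here the difference between groups was larger than the spread within either. Fas averaged 7.67 ± 1.37 CPM in WT against 3.21 ± 0.194 CPM in Qa-2- animals (SD, n = 2 each), or 2.39-fold higher in WT, with a log2 fold change of 1.26 (SE 0.28, adjusted p = 0.246). DESeq2 gave Fas an adjusted p of 0.0145, and the log2 fold change stayed between 1.06 and 1.40 when each library was left out. Its ligand Fasl was below the filter, as given above.

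Tnfrsf1a had 177.4 and 199.8 CPM in WT and 150.6 and 139.4 CPM in Qa-2- uteri, a small difference with a log2 fold change of 0.38 (SE 0.18, adjusted p = 0.379). Tnfrsf10b, the mouse death receptor of TRAIL, had 20.3 and 17.6 CPM against 14.2 and 14.8 CPM (log2 fold change 0.39, adjusted p = 0.374, and 0.26 without WT replicate 1). Both genes had groups that did not overlap, and neither passed the test. Ngfr, the low-affinity receptor of neurotrophins on nerves and some stromal cells, had 49.2 and 144.9 CPM in WT and 198.4 and 178.3 CPM in Qa-2- uteri (log2 fold change -0.96, SE 0.51, adjusted p = 0.424). The low value was that of WT replicate 1. Leaving it out gave a log2 fold change of -0.41, and leaving out WT replicate 2 gave -1.94 with an adjusted p of 0.0492. Tnfrsf21 had 69.2 and 32.4 CPM in WT and 54.0 and 89.3 CPM in Qa-2- uteri, so that the groups overlapped. Tnfrsf25, the receptor of TL1A, lay between 0.747 and 1.99 CPM, also with overlap. Edar, the ectodysplasin receptor of developing skin appendages, had 1 to 8 counts and was not tested.

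Among the 16 receptors without a death domain, 12 were tested. With all libraries, they held both the largest positive and the largest negative log2 fold change of the members tested. Tnfrsf9 (4-1BB, CD137), a costimulatory receptor of activated T cells and NK cells that is also found on endothelium, had 45.1 and 9.23 CPM in WT uteri and 1.97 and 2.83 CPM in Qa-2- uteri. Both WT libraries were above both Qa-2- libraries, and WT replicate 1 was far above WT replicate 2. It averaged 27.2 ± 25.4 CPM in WT against 2.40 ± 0.607 CPM in Qa-2- animals (SD, n = 2 each), which is 11.3-fold higher in WT, with a log2 fold change of 3.50 (SE 0.81, adjusted p = 0.254). Tnfrsf9 had a log2 fold change of 1.91 with an adjusted p of 0.114 when WT replicate 1 was left out, and had 4.23 without WT replicate 2, with an adjusted p of 0.00873. DESeq2 called Tnfrsf9 with an adjusted p of 2.57e-05. Receptor and ligand of this pair, Tnfrsf9 and Tnfsf9, were thus each highest in WT replicate 1 and next highest in WT replicate 2.

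The library with the highest values of this pair also had the highest sum of NK cell markers, through some genes of the list and not others. Summed CPM of the 8 NK cell markers were 121.4 in WT replicate 1, 11.2 in WT replicate 2, and 10.5 and 27.7 in the Qa-2- libraries, and the counts of Prf1 were 3140, 90, 47 and 159 in that order. Prf1 and Gzmb carried most of the sum of WT replicate 1, and Il2rb (12.4 CPM against 3.23 to 11.6 CPM) and Eomes (1.40 CPM against 0.366 to 1.03 CPM) were also highest there. In contrast, Ncr1 (0.224 CPM), Klrb1c (0.448 CPM) and Klrk1 (0.797 CPM) were lowest in that library, and Gzma lay within the range of the others. The 10 T cell markers summed to 7.66 and 7.77 CPM in WT and to 7.21 and 8.63 CPM in Qa-2- uteri. In WT replicate 2, a library with 11.2 CPM of NK cell markers, Tnfrsf9 had 9.23 CPM against 1.97 and 2.83 CPM. The part of NK cells and endothelium in these values was not tested.

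**Figure D2:**
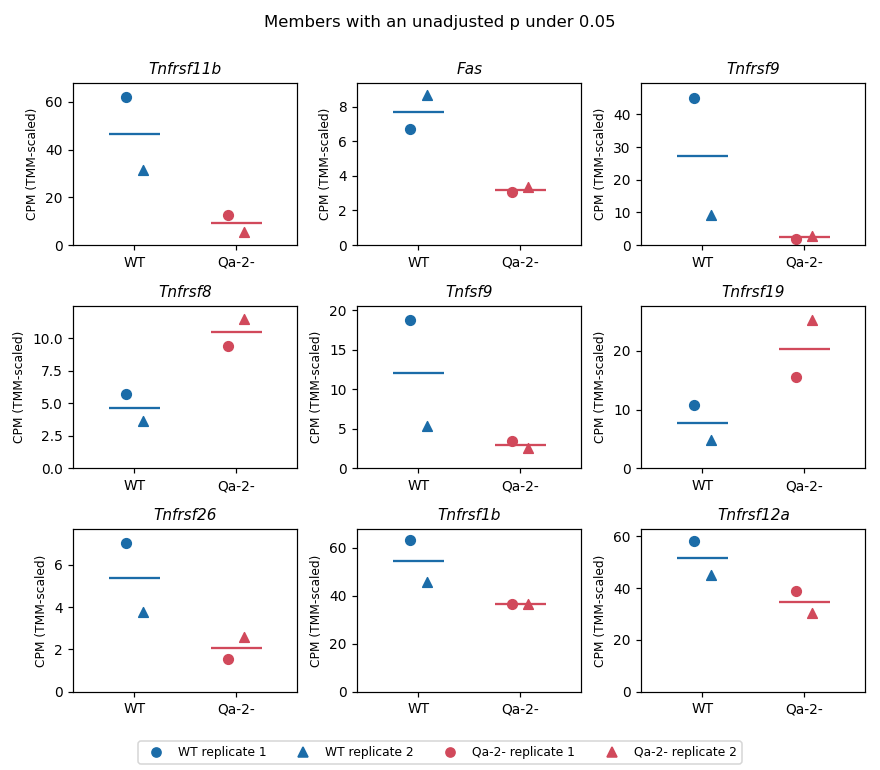
CPM on TMM-scaled library sizes of the 9 members with an unadjusted p under 0.05, with 1 point per uterus and a line at the group mean (n = 2 each). In 7 panels both WT uteri lie above both Qa-2- uteri, and in Tnfrsf8 and Tnfrsf19 both lie below; the WT points of Tnfrsf9 (45.1 and 9.23 CPM) and Tnfsf9 (18.7 and 5.36 CPM) are wide apart.

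Tnfrsf8 (CD30), a receptor of activated lymphocytes, was higher in Qa-2- uteri, with 5.70 and 3.66 CPM in WT and 9.44 and 11.5 CPM in Qa-2- uteri. The means were 4.68 ± 1.45 and 10.5 ± 1.45 CPM (SD, n = 2 each), or 2.24-fold higher in Qa-2- uteri, with a log2 fold change of -1.16 (SE 0.31, adjusted p = 0.271) and an adjusted p of 0.0402 by DESeq2. Its values were similar within each group, and the log2 fold change stayed between -1.54 and -0.88 when libraries were left out. Its ligand Tnfsf8 was below the filter. Tnfrsf19 (TROY), a receptor of epithelial and neural progenitors, had 10.7 and 4.85 CPM in WT and 15.5 and 25.3 CPM in Qa-2- uteri. The log2 fold change of Tnfrsf19 was -1.39 (SE 0.46, adjusted p = 0.295), with an adjusted p of 0.0570 by DESeq2, and it lay between -2.10 and -0.93 when each library was left out. The value of -2.10 was that without WT replicate 1. Epithelial markers were higher in the same libraries, and their part in the values of Tnfrsf19 was not tested.

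Tnfrsf1b, the TNF receptor of leukocytes and endothelium, had 63.1 and 45.9 CPM in WT and 36.5 and 36.7 CPM in Qa-2- uteri (log2 fold change 0.57, SE 0.20, adjusted p = 0.306). Tnfrsf12a had 58.3 and 45.3 CPM in WT and 38.9 and 30.6 CPM in Qa-2- uteri (log2 fold change 0.58, SE 0.21, adjusted p = 0.314). Each mean was 1.49-fold higher in WT, and in both genes the gap between the groups was smaller than the spread between the WT libraries. These log2 fold changes were 0.30 for Tnfrsf1b and 0.36 for Tnfrsf12a when WT replicate 1 was left out. The ligand of Tnfrsf12a, Tnfsf12, was apart in the same direction. Cd40, the receptor of CD40 ligand on B cells, macrophages and endothelium, had 3.94 and 4.37 CPM against 2.85 and 2.0 CPM (log2 fold change 0.78, SE 0.33, adjusted p = 0.354). Ltbr differed little, with 98.8 and 95.6 CPM in WT and 85.7 and 85 CPM in Qa-2- uteri (log2 fold change 0.19, SE 0.15, adjusted p = 0.571).

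For the remaining 5 tested receptors without a death domain the groups overlapped. Tnfrsf11a (RANK), the receptor of RANK ligand, had 25.1 and 28.8 CPM in WT and 26.3 and 14.1 CPM in Qa-2- uteri. The B cell and plasma cell receptor Tnfrsf13b (TACI), which binds BAFF and APRIL, had 3.11 and 5.49 CPM against 4.82 and 5.98 CPM. The range was 3.46 to 5.83 CPM for Tnfrsf14 (HVEM), the receptor of LIGHT, 6.63 to 13 CPM for Eda2r, a receptor of ectodysplasin A2, and 0.424 to 1.66 CPM for Tnfrsf18 (GITR), which marks regulatory T cells. No group difference was resolved for these genes. The lymphocyte receptors Tnfrsf17 (BCMA), Tnfrsf4 (OX40), Cd27 and Tnfrsf13c (BAFF receptor) were not tested. Tnfrsf17, which binds APRIL, had 11 and 10 counts in WT and 19 and 25 counts in Qa-2- uteri, and was thus higher in both Qa-2- libraries. So were 24.5% of all genes tested, and Tnfrsf13b, which also binds APRIL, overlapped between groups. Tnfrsf4 had 17 and 6 against 13 and 8 counts, Cd27 had 5 and 27 against 1 and 7 counts, and Tnfrsf13c had 0 and 21 against 6 and 2 counts. WT replicate 2, the library with the high counts of Cd27 and Tnfrsf13c, also had the highest sum of B cell markers, 46.0 CPM against 19.2 to 22.6 CPM in the other libraries. Most of this sum was Ighm, with 39.1 CPM against 13.2 to 18.9 CPM, while Cd79b was highest in Qa-2- replicate 2 (4.37 CPM). The part of B cells in these counts was not tested.

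All 4 members listed as decoy receptors were tested, and their log2 fold changes were all above 0. Their median was 1.0, against 0.13 for receptors with a death domain and 0.22 for those without. It lay between the values of Tnfrsf23 (0.60) and Tnfrsf26 (1.40), and no ligand is given here for Tnfrsf26. The contrast between classes rested on WT replicate 1. Without that library the medians were 0.43, 0.33 and 0.07, and 3 of the 4 decoy receptors were above 0. Tnfrsf11b (osteoprotegerin), a secreted trap of RANK ligand and TRAIL, had 62.0 and 31.3 CPM in WT uteri and 12.6 and 5.57 CPM in Qa-2- uteri. The groups did not overlap, and the gap between them was larger than the spread of the Qa-2- libraries but smaller than that of the WT libraries. On average there were 46.6 ± 21.7 CPM in WT against 9.07 ± 4.94 CPM in Qa-2- animals (SD, n = 2 each), or 5.14-fold higher in WT, with a log2 fold change of 2.36 (SE 0.51, adjusted p = 0.246) and an adjusted p of 0.000224 by DESeq2. With each library left out it lay between 1.76, without WT replicate 1, and 3.06, without Qa-2- replicate 1. Of its partners, Tnfsf11 was below the filter and Tnfsf10 and Tnfrsf11a overlapped between groups. Endothelial and smooth muscle markers were both higher in WT uteri, the latter with 22208 and 35945 CPM against 19621 and 10950 CPM and 4 of 6 genes apart, and their part in the values of Tnfrsf11b was not tested.

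Tnfrsf26, Tnfrsf22 and Tnfrsf23 lie side by side on the minus strand at chr7:143607659-143685872 (GRCm38). Tnfrsf26 had 7.03 and 3.76 CPM in WT and 1.52 and 2.57 CPM in Qa-2- uteri, with a log2 fold change of 1.40 (SE 0.47, adjusted p = 0.298). It dropped to 0.85 when WT replicate 1 was left out. Tnfrsf22, a decoy receptor of TRAIL, had 12.5 and 9.04 CPM against 10.6 and 6.98 CPM. Tnfrsf23, a close copy with the same ligand, had 71.3 and 26.2 CPM against 35.8 and 28.4 CPM, and its direction turned without WT replicate 1. The neighbours therefore did not show the same pattern between libraries. Tnfrsf22 and Tnfrsf23 shared 8.97% and 9.31% of their 100-base transcript windows, so reads could be lost from these stretches, whereas Tnfrsf26 shared none with another member.

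**Figure D3:**
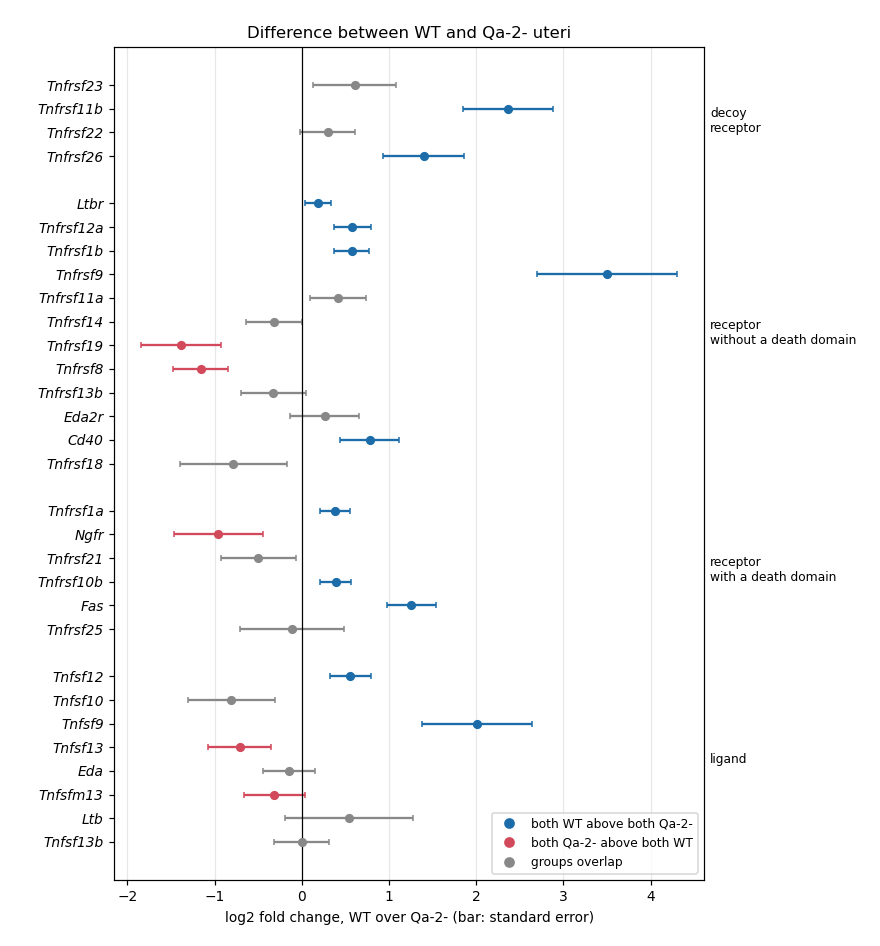
Log2 fold change of the 30 tested members, WT over Qa-2-, with bars of 1 standard error from edgeR, grouped by role. Blue marks members with both WT uteri above both Qa-2- uteri (12), red the reverse (5) and grey overlap (13); Tnfrsf9 (3.50) and Tnfrsf11b (2.36) lie farthest to the right and Tnfrsf19 (-1.39) farthest to the left.

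In the genome, 9 members lie on chromosome 4 and 8 on chromosome 17, which also carries the H2 complex. Lta, Tnf and Ltb lie 0.220 to 0.229 Mb from H2-Q6 and H2-Q7 inside that complex. Only Ltb of these 3 was tested, and its groups overlapped. Of the others, Tnf overlapped too, and Lta was higher in both Qa-2- libraries, with at most 8 counts in any library. Tnfrsf21 (7.57 Mb) and Tnfrsf12a (11.8 Mb) are farther away, and Tnfsf9, Cd70 and Tnfsf14 lie at 21.7 to 21.8 Mb, with Tnfsf9 at chr17:57105325-57107757. How far the foreign stretch of the congenic strain reaches was not given in the sources used here.

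Downstream of the receptors lie the genes that carry their signal. Of 40 signal transducers (TRAF adaptors, death domain adaptors, RIP kinases, caspase-8 and its regulators, and NF-kB proteins), 39 were tested and edgeR and DESeq2 called 0. Their median log2 fold change was -0.02, beside 0.01 for all genes. The groups were apart in 16 of them, 7 with higher values in WT and 9 with higher values in Qa-2- uteri, beside 25.4% and 24.5% of all genes. An unadjusted p under 0.05 was found for 1, with higher counts in WT, beside 8.09% of all genes. This was Ripk3, the kinase of necroptosis, with 15.7 and 16.8 CPM in WT and 11 and 9.89 CPM in Qa-2- uteri (log2 fold change 0.64, adjusted p = 0.281). It was followed by Nfkbie, an inhibitor of NF-kB (0.57), and the adaptor Traf1 (0.33). The lowest log2 fold changes were those of Birc3, an inhibitor of apoptosis (-0.68), Traf4 (-0.58) and Tnfaip3, the A20 brake on NF-kB (-0.55). These values moved with single libraries. Over the 4 fits that each left out 1 library, Nfkbie lay between 0.35 (without Qa-2- replicate 2) and 0.82 (without Qa-2- replicate 1). Traf1 lay between 0.05 and 0.67 and Birc3 between -1.03 and -0.20, in each case without Qa-2- replicate 1 and without Qa-2- replicate 2. Traf4 lay between -1.13 and -0.14 and Tnfaip3 between -0.97 and -0.21, in each case without WT replicate 1 and without Qa-2- replicate 2.

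Of 28 known NF-kB target genes, 22 were tested and edgeR called 0, whereas DESeq2 called 1. DESeq2 had called 2.79% of all genes in that direction, higher in WT. Cxcl1 and Il1b reached 1 CPM in WT libraries alone, and so entered the test through the group where they were high. The median log2 fold change of the other 20 genes was 0.25 (0.44 with both), 3 of the 20 had an unadjusted p under 0.05 with higher counts in WT, beside 8.09% of all genes, and DESeq2 called 0 of them. Values of the list were spread from -2.55 to 2.06. With Cxcl1 and Il1b included, the 5 genes with an unadjusted p under 0.05 were the neutrophil chemokine Cxcl1 (log2 fold change 2.06), the cytokine Il1b (1.65), the T cell chemokine Cxcl10 (1.56), the prostaglandin synthase Ptgs2 (1.19) and the stress gene Gadd45b (1.10, and 0.55 without WT replicate 1). Cxcl1, the gene called by DESeq2 with an adjusted p of 0.0268, had 1.92 and 1.78 CPM in WT and 0.394 and 0.486 CPM in Qa-2- uteri. At the other end were Lcn2 (-2.55), the neutrophil chemokine Cxcl5 (-1.64) and Nfkbiz, a nuclear cofactor of NF-kB (-1.02). Lcn2 and Cxcl5 were set by Qa-2- replicate 2. Without that library the log2 fold change of Lcn2 was -0.08, that of Cxcl5 1.31 and that of Nfkbiz -0.42.

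**Figure D4:**
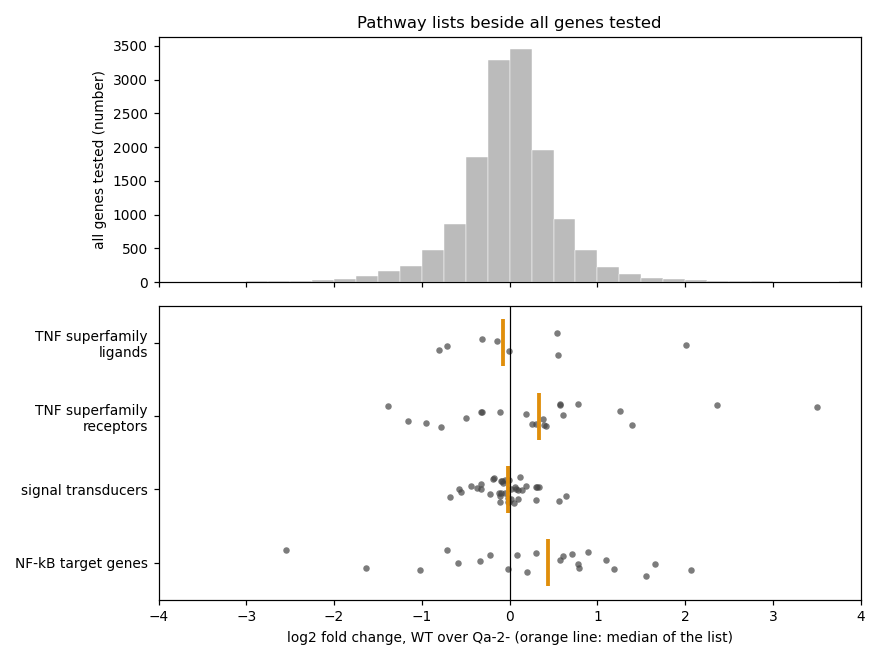
Upper panel, number of genes by log2 fold change (WT over Qa-2-) over all 14492 genes tested, with values beyond 4 in either direction counted in the end bins. Lower panel, 1 point per tested gene of 4 lists and an orange line at each median: ligands (-0.07), receptors (0.34), signal transducers (-0.02) and NF-kB target genes (0.44, or 0.25 without Cxcl1 and Il1b), where the transducers lie between -0.68 and 0.64.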

How the data were processed

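RNA from frozen uterine tissue of 2 WT and 2 Qa-2- mice had been sequenced by the authors from stranded poly(A) libraries. The values deposited by the authors are raw counts, that is, the number of read pairs assigned to each gene. Per the file headers and the submitters' processing notes, reads were aligned to GRCm38.p6 with STAR 2.7.3a and counted with featureCounts 2.0.0 on the reverse strand. Pairs with more than 1 mapping position or gene were not counted, so overlapping and duplicated genes are undercounted. GENCODE M21 gave symbols and biotypes for 55240 identifiers and held no entry for 181.

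The comparison used the 14492 genes that reached 1 CPM of the library totals in 2 or more libraries. It was made by the quasi-likelihood test of edgeR 4.0.16 (glmQLFit, glmQLFTest; R 4.3.3) after TMM normalization, with Benjamini-Hochberg adjustment over all genes kept. CPM are on TMM-scaled library sizes, CPM per kb use the exon length in the files, and the SE is the log2 fold change divided by the square root of F. Total counts of 33286390 to 41041299 and a floor of 3 counts cover counting error only. Groups follow the strain labels. Replicate libraries differed by more than sampling noise (chi-square per gene 188.4 for WT and 117.8 for Qa-2-), and p-values measure only the spread between these animals. Alternatives were DESeq2 1.42.0, upper-quartile scaling, no scaling beyond library totals, a filter of 10 counts in all libraries, no filter, a replicate block, and leaving out each library. A crossed pairing was added after seeing the data. The steps were tested on simulated counts, in which DESeq2 called both more changed and more unchanged genes than edgeR. There edgeR did call changed genes, whereas it called no gene in the data. The simulation therefore does not show how either test performs on these libraries.

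Members and lists were chosen with earlier results of these data known. Full values are given for members with an unadjusted p under 0.05, a log2 fold change of at least 1 in either direction, or groups apart with at least 0.5, then for the 5 members of highest CPM per kb and the partners of all these, and for the 3 highest and 3 lowest genes of each pathway list. The marker lists were those of T cells, B cells, NK cells, macrophages and monocytes, neutrophils, dendritic cells, endothelium, smooth muscle, stroma, epithelium, and trophoblast and yolk sac.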

Additional observations from a re-analysis of the deposited data

How the results depend on the processing

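At an adjusted p under 0.05, where edgeR called no gene, DESeq2 called 404 genes with higher counts in WT and 296 with lower counts, among them 4 and 1 members, and 1 NF-kB target gene. Without a filter on low counts 47 and 14 genes were called, and no member. The labels do not say whether same-numbered animals were paired. Deviations of same-numbered libraries correlated at -0.37 over genes. This cannot decide the question, as each group gives only a single difference between its libraries. The replicate block called 2 genes higher in WT and no member, and 7 members had an unadjusted p under 0.05 with it, against 9 in the comparison reported. With the crossed pairing, chosen after seeing the data, 14 members had one and none was called. When each library was left out, the lone library was assumed to vary like the other group. Then 0 to 88 genes were called with higher counts in WT and 0 to 5 with lower counts, with 0 to 2 and 0 to 1 members. The members were Tnfrsf9, Tnfsf9 and Ngfr, all without WT replicate 2. Members with an unadjusted p under 0.05 numbered 4 (without Qa-2- replicate 2) to 11. The median log2 fold change was 0.19 over the members with library totals alone, which moved the median of all genes to -0.08. With each library left out it was 0.10 to 0.31 over the members, -0.21 to 0.18 over the ligands and 0.11 to 0.50 over the receptors. Tnfsf13b, at -0.0025, turned to 0.0029 with upper-quartile scaling, 0.0098 without a filter, 0.00089 with at least 10 counts in every library, 0.0086 with the replicate block and 0.0077 with the crossed pairing. Directions also turned in the ranges over left-out libraries of Tnfsf13b (-0.18 to 0.19), Tnfrsf23 (-0.32 to 1.15), Tnfsf10 (-1.39 to 0.16), Eda (-0.42 to 0.094), Ltb (-0.13 to 1.83), Tnfrsf25 (-0.98 to 0.40), Eda2r (-0.33 to 0.66) and Cxcl5 (-2.75 to 1.31). The cause was not tested. The filter of 1 CPM left 16 members untested; all 46 entered the fit without a filter.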

Other observations

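A pair of genes outside the rule was looked at after the values of the members were known. Relt, a receptor of the family whose symbol does not carry the family prefix, had 1.54 and 2.23 CPM in WT and 2.25 and 2.89 CPM in Qa-2- uteri, with an edgeR log2 fold change of -0.45 (SE 0.38, adjusted p = 0.604). Tnfsf13os, a gene antisense to Tnfsf13 that is not protein-coding, had 1.42 and 1.19 CPM in WT and 1.52 and 2.43 CPM in Qa-2- uteri (log2 fold change -0.59, SE 0.42, adjusted p = 0.525 by edgeR). Both were higher in both Qa-2- libraries and neither passed the test. Tnfsf13 shared 221 exon bases with Tnfsf13os on the opposite strand, and counting used the strand.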
